A study of Mus musculus with 16 samples.

Results

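Cdx1, Cdx2, Gata4, Gata5, Gata6, Klf3, Klf4 and Klf5 encode transcription factors of the intestinal epithelium, and their transcripts were followed in the secretory and the remaining epithelial cells of the mouse small intestine (SI). These 8 genes of the 45513 in the count files were listed by name, with earlier results of these data known, and all 8 passed the filter on low counts. The series held 16 RNA sequencing libraries from 8 mice, with 1 library of EpCAM+tdTom+ and 1 of EpCAM+tdTom- live cells from each SI. Per the methods, only the proximal part of the SI was dissected. Its villus-enriched fraction was left out and the crypt-enriched ones were pooled, so tdTom- is the remaining epithelium of that material. The sort used EpCAM, a cell surface marker of epithelium, and the red fluorescent protein tdTomato (tdTom). All mice were Atoh1(WT)CreERT2 R26RtdTom adults that carried wild-type Atoh1 with the inducible recombinase CreERT2 placed after its coding sequence, in both copies of the gene, and 1 copy of the tdTom reporter at Rosa26, and tamoxifen was given to all of them, at 1 mg a day on 3 days per the labels. The methods name the same schedule for the secretory signature, while their section on RNA sequencing describes a different one. Recombination turns tdTom on where Atoh1, the gene that directs cells into the secretory lineage, is expressed, and the label then passes to the progeny, so that tdTom+ is a history of Atoh1 expression and not a single cell type. The study used adult males and females on a C57BL/6 background, without sex or age of each mouse in the labels. The question addressed by the comparison was which transcripts distinguish the secretory from the absorptive fraction.

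CDX1 and CDX2 are caudal-type homeodomain proteins that give the intestinal epithelium its identity, and CDX2 switches on enzymes and structural proteins of the brush border. GATA4, GATA5 and GATA6 are zinc-finger proteins that bind the same short DNA motif, and GATA4 is known for holding the proximal SI apart from the ileum. KLF proteins bind GC-rich and CACCC sequences. KLF4 is known from differentiated epithelium and goblet cells, KLF5 from dividing crypt cells, and KLF3 acts mostly as a repressor.

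Counts per library summed to between 17116405 and 25323567, and the 8 genes had between 1033 and 8256 counts in a library. All 8 goblet, all 8 Paneth and all 8 enteroendocrine markers were higher in tdTom+, as were the 7 tuft cell markers that could be tested, among them Dclk1 with 57.2 ± 24.0 CPM (counts scaled to a common library size with TMM, trimmed mean of M-values, factors) in tdTom+ against 10.2 ± 5.37 in tdTom- (SD, n = 8 each). The study's imaging a day after a single tamoxifen dose found no tdTom in Dclk1+ tuft or ChgA+ enteroendocrine cells. Enteroendocrine cells carried tdTom some days later, and the labels here give tamoxifen on 3 days. All 8 absorptive markers were lower. Of 8 stem cell markers 4 were higher and none was lower, and none of 8 proliferation markers passed the test in either direction. All marker counts here use the edgeR test described below, at an adjusted p threshold of 0.01. Over all genes tested, 25.8% were higher and 30% lower by it. The enteroendocrine marker Neurog3 and the tuft marker Gfi1b had as few as 7 and 4 counts in a tdTom- library. Both passed the filter on low counts only through tdTom+, so they add no support to the counts of higher markers. Intraepithelial lymphocyte and other immune markers summed to between 5.62 and 27.3 CPM in tdTom+ and between 10.1 and 139 CPM in tdTom-, and 5 of the 7 tested were lower in tdTom+. The tdTom- libraries of mice 7 and 8 stood apart, with immune sums of 125 and 139 CPM against at most 36.0 CPM in the other 6, and absorptive sums of 14550 and 24823 CPM against at least 27682 CPM. Their stem cell marker sums were 2824 and 1772 CPM against 1125 to 1625 CPM, and the proliferation sum of mouse 7 was 682 CPM against at most 509 CPM in those 6. Among the 8 genes, the call of Klf3 was the one lost without these mice. In bulk libraries, fewer cells of a type and less RNA of a gene per cell cannot be told apart.

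All 8 genes differed between the fractions at an adjusted p threshold of 0.01, where the background over the 15323 genes tested was 55.8% in either direction (edgeR quasi-likelihood test with the mouse as a replicate block, Benjamini-Hochberg adjustment over all genes tested). Klf4, Cdx1 and Klf3 were higher in tdTom+, against 25.8% of all genes tested, and Cdx2, Gata4, Gata5, Gata6 and Klf5 were lower, against 30%. These shares depend on the scaling, since 4448 genes were higher and 3356 lower when a gene needed at least 10 counts in every library, and 4529 and 3626 without mouse 3, against 3956 and 4600 here. Since the genes were listed with earlier results known, the count of 8 is a description. The median absolute log2 fold change was 0.38 over all genes tested and 0.81 over the genes that passed. Klf4 and Cdx1 lay above the second of these values, and the other 6 genes below it. For Cdx1, Klf4, Gata4, Gata6 and Klf5 no tdTom+ library overlapped with any tdTom- library, as for 31.6% of all genes tested.

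**Figure D1:**
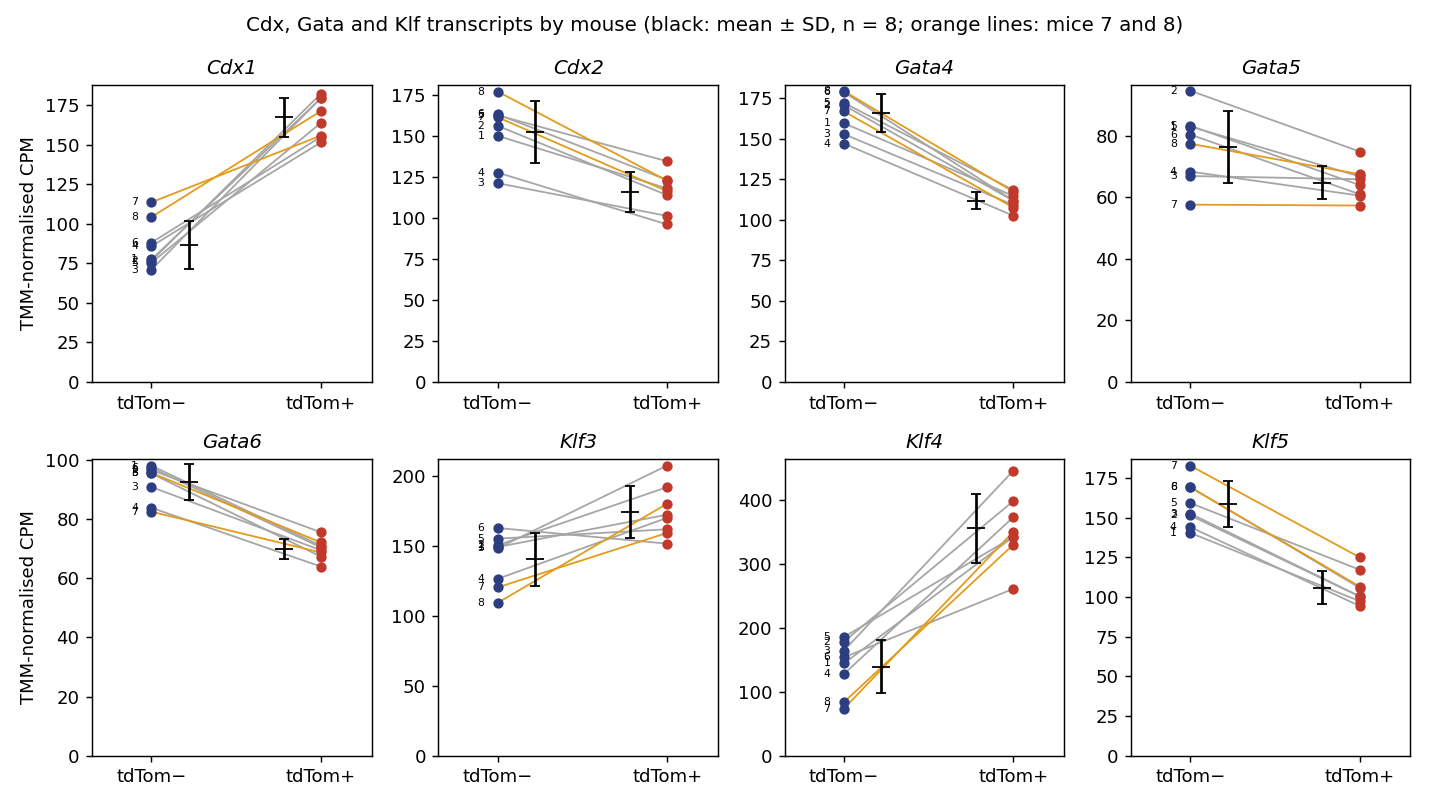
TMM-normalised CPM of each gene, with 1 point for each library and a line joining the 2 libraries of a mouse. Klf4 and Cdx1 rose in 8 of 8 mice, Cdx2, Gata4, Gata5, Gata6 and Klf5 were lower in 8 of 8, and Klf3 was higher in 7 of 8.

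**Figure D2:**
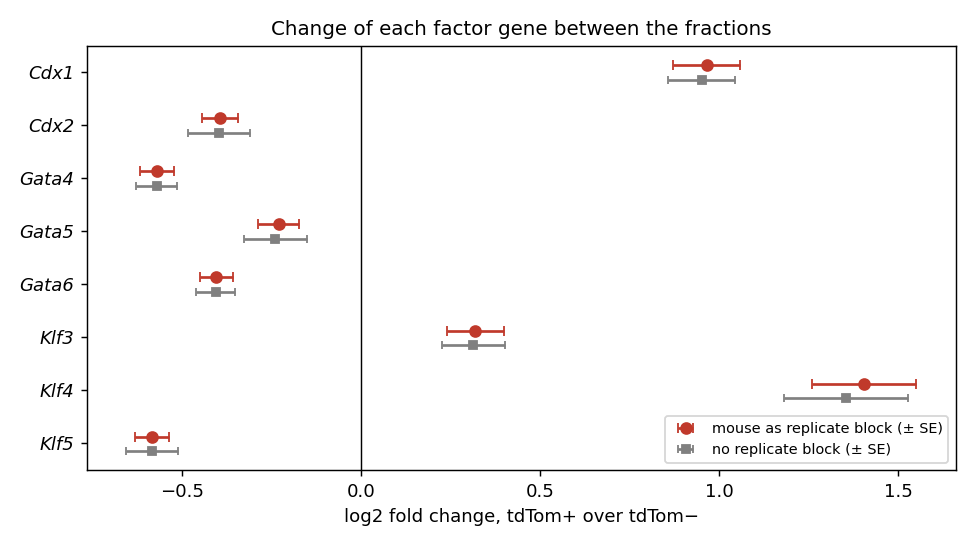
Log2 fold change of each gene, tdTom+ over tdTom-, with its standard error, with the mouse as a replicate block (circles) and without it (squares). The paired and unpaired values lie close together, from -0.58 for Klf5 to 1.40 for Klf4 with the block.

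Upstream sequence from RefSeq (GRCm38.p6) was available for 4 of the 8 genes, Klf4, Klf3, Cdx2 and Gata5, and was not used here for Cdx1, Gata4, Gata6 and Klf5. Klf4 and Cdx2 are shown because they changed in opposite directions. The Klf4 window is chr4:55532476-55532725 on the minus strand and the Cdx2 window chr5:147307271-147307499 on the minus strand, both 5′ to 3′, ending just before the annotated gene. Capitals mark matches, on either strand, to a motif. The core of the CDX motif was searched as TTTAT and that of the GATA factors as AGATAA. The box bound by KLF proteins was searched as CACCC. An E-box of the kind that ATOH1 binds was searched as CAGCTG.
Klf4: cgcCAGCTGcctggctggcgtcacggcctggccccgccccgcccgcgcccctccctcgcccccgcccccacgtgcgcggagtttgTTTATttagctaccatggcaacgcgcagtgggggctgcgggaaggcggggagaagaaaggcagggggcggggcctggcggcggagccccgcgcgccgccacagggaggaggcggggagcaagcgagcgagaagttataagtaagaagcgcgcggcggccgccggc
Cdx2: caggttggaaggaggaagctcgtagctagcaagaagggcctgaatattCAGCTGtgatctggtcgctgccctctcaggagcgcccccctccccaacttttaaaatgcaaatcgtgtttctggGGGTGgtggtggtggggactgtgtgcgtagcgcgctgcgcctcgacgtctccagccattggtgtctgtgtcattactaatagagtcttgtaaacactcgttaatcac
The E-box occurred once in each of these windows, the CDX core once in Klf4 and the KLF box once in Cdx2. The GATA motif was not found in the 250 bases before any of the 4 starts. Klf3 held the KLF box at 5 places and Gata5 at 1 place in these 250 bases, and neither held the CDX core or the E-box. Of all 32851 RefSeq promoter windows of 250 bases, 37.3% held the CDX core and 9.99% the GATA motif. The KLF box was in 52% of them and the E-box in 13%. No match overlapped with another in the printed windows, and a match is a description of letters and not of binding.

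The Cdx pair moved in opposite directions. Cdx1 (chr18:61018862-61036199, minus strand, GRCm38) had a lowest, median and highest level of 151, 168 and 182 CPM in tdTom+ and of 71.1, 81.6 and 114 CPM in tdTom-. Every tdTom+ library lay above every tdTom- library, with means of 167 ± 12.4 and 86.5 ± 15.1 CPM (SD, n = 8 mice each). The change was 1.95-fold, a log2 fold change of 0.96 ± 0.093 (SE; edgeR adjusted p = 6.2e-07). It was smallest in mouse 7, at 1.37-fold, and largest in mouse 3, at 2.53-fold.

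Cdx2 (chr5:147300805-147307270, minus strand) had a lowest, median and highest level of 96.1, 117 and 135 CPM in tdTom+ and of 121, 159 and 177 CPM in tdTom-. The fractions overlapped, but within each of the 8 mice the tdTom+ library was the lower one. The log2 fold change was -0.39 ± 0.050 (SE; edgeR adjusted p = 9.58e-06), or 1.31-fold lower. The ratio of the 2 genes needs no scaling between libraries. Per kilobase of exon, Cdx1 stood at 1.87 times Cdx2 in tdTom+ and at 0.729 times Cdx2 in tdTom- (geometric means). The log2 ratio differed between the fractions by 1.36 ± 0.25 (SD, n = 8), with a range of 0.93 to 1.71, so that Cdx1 was the more abundant of the pair in all 8 tdTom+ libraries and Cdx2 in all 8 tdTom- libraries. The summed level of both was 147 ± 8.96 CPM per kb in tdTom+ and 117 ± 14.9 in tdTom- (SD, n = 8 each) and was higher in tdTom+ in 8 of 8 mice.

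All 3 Gata genes fell, by small amounts. Gata4 (chr14:63198922-63271692, minus strand) had a lowest, median and highest level of 102, 112 and 118 CPM in tdTom+ and of 147, 169 and 179 CPM in tdTom-. The fractions did not overlap, and the log2 fold change was -0.57 ± 0.047 (SE; edgeR adjusted p = 1.41e-07). Gata6 (chr18:11052510-11085635, plus strand), which is known from crypt cells as well as villus cells, ranged from 64.0 through a median of 70.0 to 75.6 CPM in tdTom+ and from 82.5 through 95.6 to 98.1 CPM in tdTom-. Again the fractions did not overlap, with a log2 fold change of -0.40 ± 0.046 (SE; edgeR adjusted p = 3.55e-06).

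Gata5 (chr2:180325133-180334699, minus strand) showed the smallest change. Its lowest, median and highest levels were 57.3, 64.9 and 74.8 CPM in tdTom+ and 57.6, 78.8 and 94.6 CPM in tdTom-. The fractions overlapped, and in mice 3 and 7 the levels of the 2 libraries were almost the same, at 65.8 and 66.8 CPM in mouse 3 and 57.3 and 57.6 CPM in mouse 7. The log2 fold change was -0.23 ± 0.058 (SE; edgeR adjusted p = 0.00325). This call was lost without the replicate block (-0.24, edgeR adjusted p = 0.0252), when a gene needed at least 10 counts in every library (-0.11, edgeR adjusted p = 0.105), and without mouse 1, 2, 3 or 5, where the edgeR adjusted p lay between 0.0102 and 0.0466. Antisense transcripts overlap Gata6 and Gata5. 1010001N08Rik, which overlaps the Gata6 start on the other strand, had 3.64 CPM in tdTom+ against 8.02 in tdTom- (log2 fold change -1.14, edgeR adjusted p = 3.34e-06). Gata5os, with 5 to 37 counts in a library, was at 0.570 and 1.03 CPM and did not pass (-0.84, edgeR adjusted p = 0.0107). Counting used the strand of the reads.

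Within the Gata group the proportions shifted little. Of the summed CPM per kb, Gata4 held 40.7% ± 1.33 in tdTom+ and 44.9% ± 2.32 in tdTom-, Gata6 held 31.2% ± 0.775 and 30.6% ± 0.982, and Gata5 held 28.1% ± 1.27 and 24.5% ± 2.26 (SD, n = 8 each). The Gata4 share was lower in tdTom+ in 8 of 8 mice, the Gata5 share was higher in 8 of 8, and the Gata6 share was higher in 4 of 8. The sum was 70.2 ± 3.40 CPM per kb in tdTom+ and 94.8 ± 7.26 in tdTom- (SD, n = 8 each), and it was lower in tdTom+ in every mouse.

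**Figure D3:**
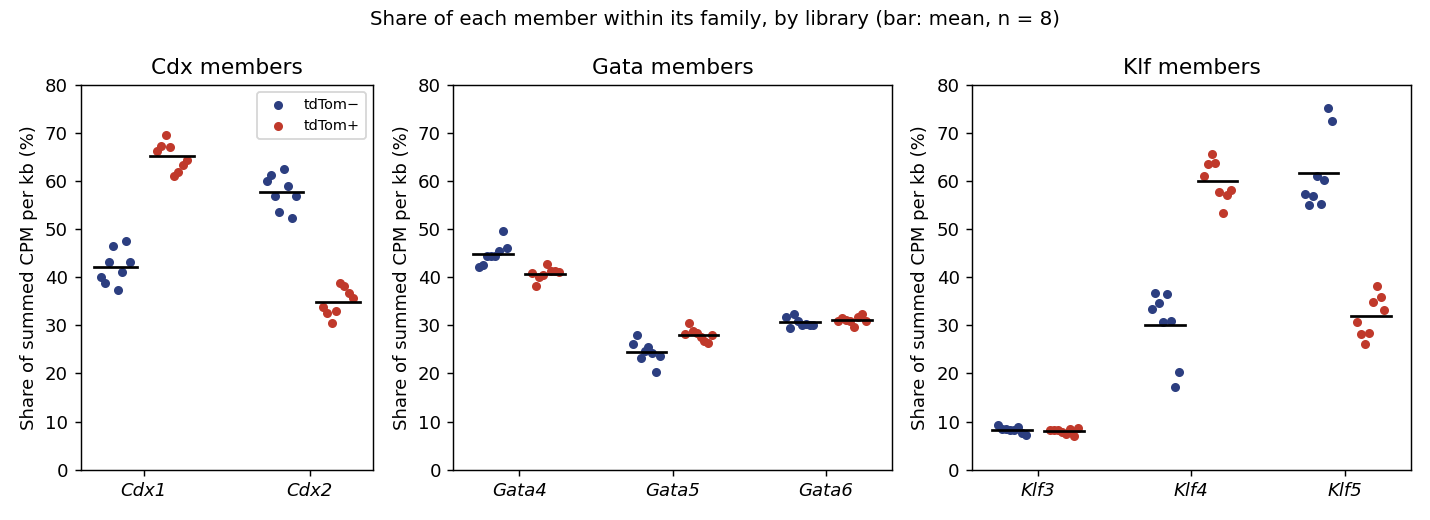
Share of each gene in the summed CPM per kb of its family in percent, with 1 point for each library and a bar at the mean. Cdx1 and Klf4 held 65.1% and 60.0% of their families in tdTom+ but 42.2% and 30.03% in tdTom-, while the Gata shares moved by a few percentage points.

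Among the Klf genes, Klf4 (chr4:55527143-55532466, minus strand) rose and Klf5 (chr14:99298691-99313405, plus strand) fell. Klf4 had a lowest, median and highest level of 261, 347 and 447 CPM in tdTom+ and of 73.8, 149 and 186 CPM in tdTom-. No library of one fraction reached the other, with means of 356 ± 53.9 and 139 ± 41.6 CPM (SD, n = 8 each). The change was 2.65-fold, a log2 fold change of 1.40 ± 0.14 (SE; edgeR adjusted p = 1.28e-06).

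The size of the Klf4 difference varied between mice, from 1.70-fold in mouse 6 to 4.75-fold in mouse 7 and 3.94-fold in mouse 8. In mice 7 and 8 it was the tdTom- level that stood apart, at 73.8 and 83.9 CPM against 128 to 186 CPM in the other mice, while their tdTom+ levels of 351 and 331 CPM lay inside the range of the others. The same 2 tdTom- libraries had the highest Cdx1, at 114 and 104 CPM against at most 88.1 CPM, and the lowest Klf3. They were also the libraries with the highest immune and stem cell marker sums and the lowest absorptive sums of their fraction, and the part of these cells in the Klf4 difference was not tested. Without mice 7 and 8 the log2 fold change of Klf4 was 1.18 and that of Cdx1 was 1.10, and both still passed the test (edgeR adjusted p = 2.39e-07 and 5.11e-08).

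**Figure D4:**
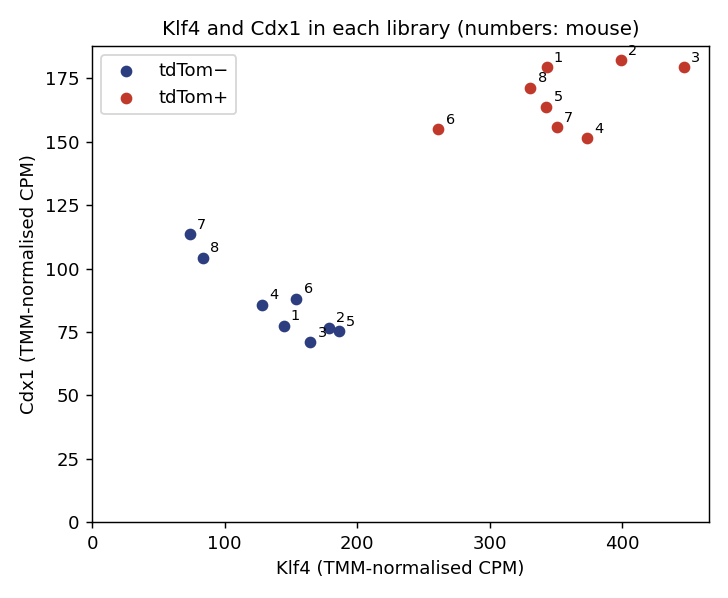
Cdx1 against Klf4 in TMM-normalised CPM, with 1 point for each of the 16 libraries and the mouse number beside it. The tdTom- libraries of mice 7 and 8 have the lowest Klf4 (73.8 and 83.9 CPM) and the highest Cdx1 (114 and 104 CPM) of their fraction, and the tdTom+ libraries lie apart from all of them.

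Klf5 had a lowest, median and highest level of 94.3, 103 and 125 CPM in tdTom+ and of 140, 156 and 183 CPM in tdTom-, with no overlap. The log2 fold change was -0.58 ± 0.048 (SE), the largest fall of the 8 genes (edgeR adjusted p = 1.14e-07). Per kilobase, Klf4 stood at 1.89 times Klf5 in tdTom+ and at 0.475 times Klf5 in tdTom- (geometric means), and the log2 ratio differed by 1.99 ± 0.53 (SD, n = 8) with a range of 1.32 to 2.80. Klf4 thus took 60.0% ± 4.13 of the summed level of the 3 Klf genes in tdTom+ and 30.03% ± 7.36 in tdTom-, and Klf5 took 32.0% ± 4.27 and 61.7% ± 7.85 (SD, n = 8 each).

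Klf3 (chr5:64803388-64832901, plus strand) had a lowest, median and highest level of 151, 171 and 207 CPM in tdTom+ and of 109, 149 and 163 CPM in tdTom-. The fractions overlapped, and Klf3 was higher in tdTom+ in 7 of 8 mice, the exception being mouse 6 with 151 CPM in tdTom+ and 163 CPM in tdTom-. The log2 fold change was 0.32 ± 0.081 (SE; edgeR adjusted p = 0.00335). It missed the threshold without mouse 4 (0.30, edgeR adjusted p = 0.0108), without mice 7 and 8 (0.24, edgeR adjusted p = 0.0143) and when libraries were scaled by total counts (0.25, edgeR adjusted p = 0.0134). C230096K16Rik, a short gene on the same strand inside Klf3, had only 13 to 87 counts in a library and was lower in tdTom+ (log2 fold change -1.05, edgeR adjusted p = 0.000139).

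Levels of different genes were compared only per kilobase of annotated exon, which ranged from 1721 bases for Klf5 to 11243 bases for Klf3. In tdTom+ the order of the mean levels was Klf4 (117 CPM per kb), Cdx1 (95.6), Klf5 (61.5), Cdx2 (51.2), Gata4 (28.6), Gata6 (21.9), Gata5 (19.7) and Klf3 (15.5). Each of these stood above the next in all 8 libraries, except Klf4 over Cdx1, which held in 7 of 8. In tdTom- the order was Klf5 (92.1), Cdx2 (67.4), Cdx1 (49.5), Klf4 (45.7), Gata4 (42.5), Gata6 (29.0), Gata5 (23.3) and Klf3 (12.5). Here Cdx1 and Klf4 did not separate, since Cdx1 was above Klf4 in only 3 of 8 libraries, and Klf4 was above Gata4 in 6 of 8. Klf4 lay at or above 97.6% of the genes tested in tdTom+ and 92% in tdTom-. Klf3, the lowest of the 8 per kb, lay at or above 79.9% and 73.6%. Its place rests on the 11243 bases of annotated exon, since its mean before that division was 174 CPM in tdTom+. The first place of Klf5 in tdTom- likewise rests on its 1721 bases. Before that division its tdTom- mean was 159 CPM, against 166 CPM for Gata4.

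Of the 23 other Klf and Sp genes 15 could be tested, and 6 were higher and 1 was lower in tdTom+, against 25.8% and 30% of all genes tested. The median log2 fold change of the 15 was 0.20, against 0.02 over all genes tested. Klf2, known best from endothelium and lymphocytes, rose from 3.86 ± 2.69 CPM in tdTom- to 19.2 ± 8.27 CPM in tdTom+ (SD, n = 8 each; edgeR adjusted p = 1.2e-07). The 8 stromal and endothelial markers summed to between 18.5 and 45.8 CPM in tdTom+ and between 4.12 and 8.49 CPM in tdTom-. Vim was the single one of 3 tested that rose. It made up most of the tdTom+ sum, at 23.4 ± 8.18 CPM against 2.30 ± 1.14 in tdTom- (SD, n = 8 each). Of the endothelial markers, Cdh5 had 0 counts in every tdTom+ library and Pecam1 had 9 to 38 (1.16 ± 0.422 CPM in tdTom+ against 0.925 ± 0.416 in tdTom-, SD, n = 8 each; edgeR adjusted p = 0.11), and the part of endothelial cells in the Klf2 difference was not tested. Klf9 rose from 13.4 ± 1.56 to 25.3 ± 3.66 CPM (SD, n = 8 each; edgeR adjusted p = 8.62e-08), and Klf15, Klf10, Sp2 and the scarce Klf12 were also higher. Sp5, a target of Wnt signalling, fell from 14.7 ± 2.29 to 4.56 ± 1.11 CPM (SD, n = 8 each; edgeR adjusted p = 6.84e-08). Klf6 had 161 ± 36.9 CPM in tdTom+ against 144 ± 15.9 in tdTom- and did not pass (edgeR adjusted p = 0.159, n = 8 each). Of 5 genes whose proteins bind KLF factors or mark them for degradation, Wwp1, a ubiquitin ligase, rose from 24.0 ± 3.63 to 41.6 ± 3.88 CPM (SD, n = 8 each; edgeR adjusted p = 1.57e-07). Fhl3, a KLF3 cofactor, had 11 to 28 counts in tdTom+ and at most 6 in tdTom- and was the other gene of the 5 that passed. Both were higher, against 25.8% of all genes tested, and none of the 5 was lower, against 30%. Fhl3 and Klf12, with at most 6 and 5 counts in tdTom-, passed the filter on low counts only through tdTom+. They therefore add no support to the counts of higher genes.

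Gata1, Gata2, Gata3 and Cdx4 had at most 5 counts in any library and were not tested. Of the 7 other Gata and Cdx genes and GATA cofactors only Zfpm1, which encodes the cofactor FOG1, passed the filter, and it had 95.4 ± 6.34 CPM in tdTom+ against 92.1 ± 9.28 in tdTom- (SD, n = 8 each; edgeR adjusted p = 0.393).

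Of 10 genes known as targets of CDX2, 9 were lower and 1 was higher in tdTom+, against 30% and 25.8% of all genes tested, and 7 to 9 were lower under the alternatives. Their median log2 fold change was -1.08. Among the lower ones were the brush border enzymes Sis (log2 fold change -2.49), Lct (-3.36) and Alpi (-3.21), all of which are also absorptive markers, while the adhesion gene Cdh17 changed by -0.29 (edgeR adjusted p = 0.0035, and 0.0155 without the replicate block). The gene that rose was Muc2, the goblet cell mucin, with 13380 ± 4790 CPM in tdTom+ against 71.5 ± 14.3 in tdTom- (SD, n = 8 each). Of 9 genes of the proximal SI, where GATA4 acts, 6 were lower, among them Apoa4 (-3.65), Fabp1 (-2.92) and Npc1l1 (-2.10), and 1 was higher, against 30% and 25.8% of all genes tested. Apoa4, Fabp1 and Lct, which also fell, are on the absorptive marker list as well. The gene that was higher was Cybrd1, a duodenal iron reductase, with 17.3 ± 5.59 CPM in tdTom+ against 1.25 ± 0.681 in tdTom- (SD, n = 8 each). Cybrd1 had 8 to 46 counts in tdTom- and passed the filter on low counts only through tdTom+. Its call therefore adds no support to the count of higher proximal genes. Of 5 ileal genes listed, Fabp6, Slc10a2 and Fgf15 had at most 11 counts in any library of either fraction. Only the proximal SI was dissected, so their levels in the ileum were not measured. The other 2 listed, the bile acid exporter genes Slc51a and Slc51b, were not scarce. They had 149 ± 21.1 and 52.1 ± 10.6 CPM in tdTom- (SD, n = 8 each). Both were lower in tdTom+ (log2 fold change -2.53 and -3.07), against 30% of all genes tested.

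Stomach genes were scarce in both fractions. Sox2 and Atp4b had no count in any of the 16 libraries, which allows at most 3 counts in a library. Gif, which encodes the gastric intrinsic factor, had 21 to 126 counts in tdTom+ and 0 to 3 in tdTom-, and Gkn3 was at 8.19 ± 3.52 and 5.29 ± 1.87 CPM (SD, n = 8 each; edgeR adjusted p = 0.00982, and 0.0383 without the replicate block). Of the 11 listed, 3 could be tested and these 2 were higher in tdTom+, against 25.8% of all genes tested. Gif passed the filter on low counts only through tdTom+, so its call adds no support to that count.

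Of 8 cell cycle genes known as targets of KLF4 or KLF5, 4 were higher in tdTom+ and none was lower, against 25.8% and 30% of all genes tested. Of these 4, 3 encode cyclin-dependent kinase inhibitors. Cdkn1a rose from 132 ± 24.5 to 222 ± 34.1 CPM, Cdkn1c from 6.26 ± 1.33 to 12.3 ± 2.57 CPM and Cdkn1b from 40.3 ± 4.57 to 50.5 ± 4.97 CPM (SD, n = 8 each; edgeR adjusted p = 5.01e-06, 0.00014 and 0.000108). The fourth was Myc, with 29.2 ± 4.32 CPM in tdTom+ against 22.3 ± 8.02 in tdTom- (SD, n = 8 each; edgeR adjusted p = 0.00752, and 0.058 without the replicate block). Ccnd1, Ccnb1, Ccne1 and Cdk1 did not pass. Klf4 is itself known to respond quickly to stress, so 12 immediate early and dissociation genes were read beside it. Of these, 6 were higher and 2 lower in tdTom+, against 25.8% and 30% of all genes tested, with Dusp1 (1.66), Fosb (1.31) and Atf3 (0.98) rising most on the log2 scale and Jun, Junb, Hspa1a and Hspa1b not passing. Their sum was 2190 to 5136 CPM in tdTom+ and 2008 to 3449 CPM in tdTom-, higher in tdTom+ in 7 of 8 mice, and its part in the Klf4 difference was not tested.

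Of 16 other transcription factor genes of the intestinal epithelium, 6 were higher and 7 lower in tdTom+, against 25.8% and 30% of all genes tested. The forkhead genes Foxa1 (log2 fold change 2.18), Foxa2 (3.23) and Foxa3 (4.88) had larger changes than Klf4 or Cdx1, and Ehf (0.84), Tcf7l2 (0.31) and Elf3 (0.30) smaller ones than Klf4. Among those that fell were Creb3l3 (-3.29), Maf (-2.54), Prdm1 (-1.51), Nr5a2 (-0.90) and Isx (-0.24), and also Hnf4g, from 287 ± 69.4 to 71.5 ± 15.4 CPM (SD, n = 8 each). Hnf4a, the nuclear receptor gene used throughout the epithelium, had 593 ± 41.9 CPM in tdTom+ against 609 ± 50.2 in tdTom- and did not pass (SD, n = 8 each; edgeR adjusted p = 0.613).

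**Figure D5:**
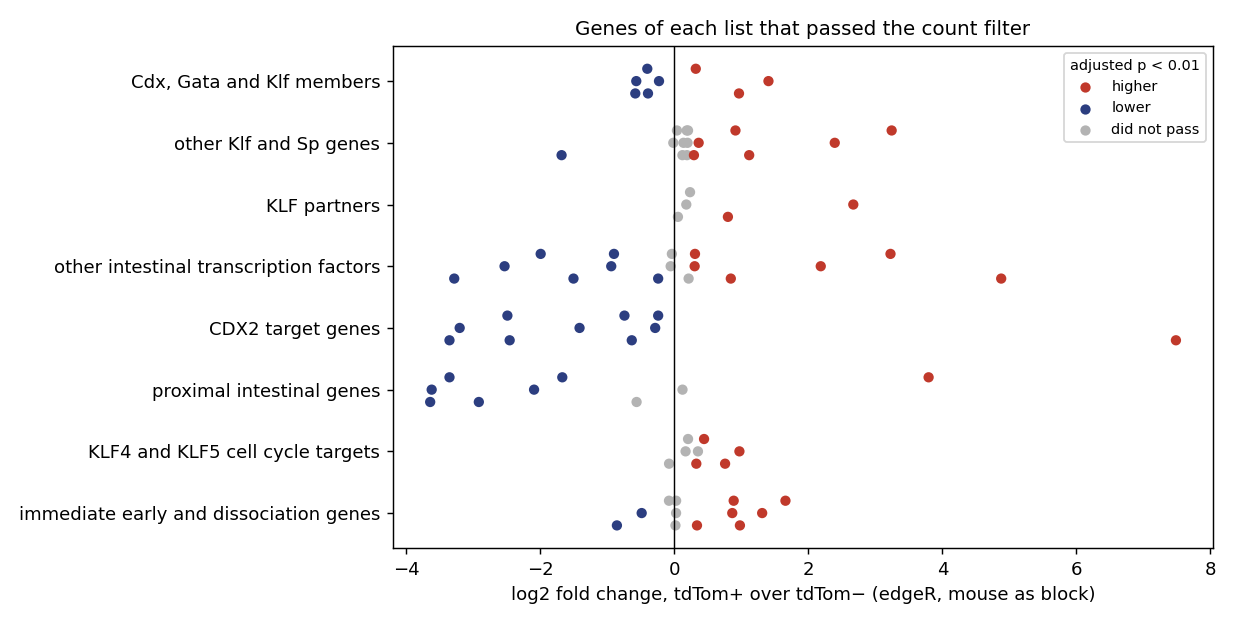
Log2 fold change of each tested gene of the lists shown, tdTom+ over tdTom-, coloured by whether the adjusted p passed 0.01. The gastric, ileal, other Gata and Cdx and cell type marker lists are not drawn. The Cdx, Gata and Klf genes span -0.58 to 1.40, a narrower range than the CDX2 targets, which reach from -3.36 (Lct) to 7.49 (Muc2).

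Genes that varied most like each of the 8 within the fractions were sought among 8941 genes with a mean of at least 10 CPM, by Pearson correlation of log2 CPM over the 16 libraries after the fraction mean was taken off. The 2 libraries of a mouse are not independent, and no test was made. Gata4 was most like Rps6ka1 (r = 0.89) and Cdx2 (r = 0.89), the only case in which another of the 8 came among the first 2. Klf4 was most like Parp4 and Gse1 (both r = 0.96) and Klf3 most like Vps54 and Fam83b (both r = 0.94). Between the fractions the genes most like Klf4 differed in direction, since Gse1 was higher in tdTom+ (log2 fold change 3.54) and Parp4 lower (-0.77). Cdx1 was most like Bag1 and Carhsp1 (both r = 0.90), Cdx2 like Pgk1-rs7 (0.90) and Add1 (0.89), Gata5 like Gm4750 and Tmem104 (both 0.88), Gata6 like Zdhhc5 (0.90) and Lrrc41 (0.88), and Klf5 like Nop53 (0.86) and Qars (0.85). Pgk1-rs7 and Gm4750 can share reads with near-identical copies, so their counts are uncertain. Without mice 7 and 8, over 12 libraries, these correlations lay between 0.78 and 0.95.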

How the data were processed

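RNA of EpCAM+tdTom+ and EpCAM+tdTom- cells was sequenced as single-end reads from TruSeq Stranded mRNA libraries. The authors aligned reads with TopHat2 2.1.1 to GRCm38.p3, and the deposited values are raw counts per Ensembl gene, unnormalised, from featureCounts, summed over exons, with reverse-strand assignment of primary alignments. The submitters' processing notes name Subread 1.5.2, whereas the file headers name featureCounts 1.5.0-p1. The notes also name DESeq2 1.14.1. The 45513 genes were matched to symbols for 44585 identifiers.

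Counts were filtered with filterByExpr by group, scaled with TMM factors, and tested with the quasi-likelihood F-test of edgeR 4.0.16 (R 4.3.3), tdTom+ against tdTom-, with the mouse as a block, at a Benjamini-Hochberg adjusted p of 0.01. The standard error is the log2 fold change divided by the square root of F. CPM are TMM-normalised, and per kb values divide them by the deposited exon length. The mouse numbers come from the sample titles, and the series design has both fractions taken from each SI. Libraries of the same number deviated together (r = 0.245 to 0.634, mean 0.426), and each tdTom- library correlated best with its own mouse in 8 of 8. The procedure was tested on simulated data. These held no differences between mice and few changed genes, so they could not check the mouse block or the scaling under a broad shift. Genes named are the 8 factors, the genes of the lists, for each factor the 2 genes most like it, and, chosen after their values were seen, 3 genes that overlap a factor gene. The values of 1 listed gene are not reported here. Members and lists were chosen with earlier results of these data known. Alternatives were no replicate block, RLE factors, total counts, TMM leaving out the top 10 genes, limma-voom (limma 3.58.1), DESeq2 1.42.0 (blocked or not), no filter, at least 10 counts in every library, thinning, an adjusted p of 0.05, and leaving out each mouse. Leaving out mice 7 and 8 together was added after seeing the data. Limits from counts cover counting error only.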

Additional observations from a re-analysis of the deposited data

How the results depend on the processing

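Cdx1, Cdx2, Gata4, Gata6, Klf4 and Klf5 kept their direction and stayed past the threshold under all 20 alternatives, and no gene reversed. Gata5 missed the threshold without the replicate block (-0.24), with DESeq2 without the block (-0.23, adjusted p = 0.0495) and with at least 10 counts in every library (-0.11), and ranged from -0.26 to -0.15 with a mouse left out. Klf3 missed it with total counts (0.25) and without mice 7 and 8 (0.24), and ranged from 0.26 to 0.40 with a mouse left out. Without the replicate block, 7606 genes passed (49.6%), against 8556 with it. Requiring 10 counts in every library raised the median log2 fold change of all genes by 0.12 and leaving out mouse 3 by 0.10, so that small falls such as that of Gata5 are stated relative to the TMM scale. Ratios between members do not depend on it.

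The following counts of list genes moved by more than 1.5 times. Smaller moves included CDX2 targets that were lower (7 to 9), cell cycle targets that were higher (3 to 5) and other transcription factors that were higher (5 to 7). Without mice 7 and 8, those higher were 7 other Klf and Sp genes, 3 KLF partners, 5 other transcription factors and 5 cell cycle targets, and 7 proximal genes were lower. The gastric genes higher in tdTom+, 2 at first, were 1 without the replicate block, with total counts, with 10 counts in every library and with thinning, 5 with DESeq2 with the block and with no filter, 4 with DESeq2 without the block, and 1 to 2 with a mouse left out. The other Klf and Sp genes that were higher, 6 at first, were 10 with 10 counts in every library and at an adjusted p of 0.05, and 6 to 10 with a mouse left out. KLF partners that were higher were 2 at first, 1 with thinning, 4 at 0.05, and 2 to 4 with a mouse left out. Immediate early genes that were lower were 2 at first, 1 without the block, and 1 to 2 with a mouse left out. Proximal genes that were higher fell from 1 to 0 with 10 counts in every library, where Cybrd1 was not tested. Without the replicate block, the calls of the list genes Klf10, Tcf7l2, Isx, Cdh17, Gkn3, Myc, Fos, Zfp36, Sh2d6, Smoc2, Gzma and Cd7 were lost, and among the 8 factor genes only that of Gata5. No cause of these changes was tested, apart from genes dropped by a filter.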
